A study of Mus musculus with 48 samples.

Results

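Suox, Kcns3 and Slc5a8 are 3 mouse genes whose RNA levels differed between the duodenum and the ileum, or came to differ around weaning. They were chosen by that difference, measured in the CPM of these same samples, so their regional differences and their changes from week 2 to week 3 are given as descriptions without a test. Each of the 3 symbols matched 1 Ensembl gene identifier, out of 54532 identifiers in the count table, and all 3 passed the filter on low counts. By week 4 Suox and Slc5a8 were high in the ileum, and Kcns3 was down to about 1 CPM there, in counts per megacount of the scaled library (CPM).

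The study catalogued RNA in the postnatal small intestine of C57Bl/6J mice of both sexes, with no treatment or genetic change in any group. Pieces of 2 cm of whole-thickness duodenum or ileum were collected at 8 ages: day 0, 2, 4, 6 and 8, then week 2, week 3 and week 4. Each region and age has 3 samples. The labels call the housing standard germ-free, yet also speak of limiting variation in microbial exposure, and this was not settled here. Pups remained with the mother up to day 21 and were moved to chow thereafter, so week 2 is before that change. Week 3 is labelled without a day, so whether its samples came before or after the change is not known. The step from week 2 to week 3 is called the weaning step below. Litters usually supplied 2 to 3 of the ages. The labels do not say which samples share a mouse or a litter, so the p-values below measure the spread between these samples only. Both day 6 samples numbered 3 were left out, since region genes go against their labels, which gave 46 samples in 16 groups, with 2 samples at day 6 in each region and 3 elsewhere.

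Total estimated counts ranged from 23173093 to 65042327 per duodenum sample and from 16824021 to 42029626 per ileum sample. The region labels were checked with Pdx1, a transcription factor of the proximal gut, and Fabp6, the bile acid binding protein of ileal enterocytes. Duodenum samples held 1.81 to 25.0 CPM of Pdx1, and ileum samples 0.0678 to 6.51. Of Fabp6, duodenum samples held 0 to 4.74 CPM and ileum samples 1.77 to 1936. Both pairs of ranges overlap, so neither gene alone separates all samples. A list of 5 proximal genes summed to 326 to 1682 CPM in the duodenum and to 66.4 to 1032 in the ileum. A list of 4 distal genes summed to 125 to 1070 and to 538 to 3325 CPM, which also overlap. In the left-out day 6 samples Pdx1 was 0.115 CPM in the library labelled duodenum and 14.5 in the library labelled ileum, against 11.1 and 11.8 in the 2 day 6 duodenum samples kept and 0.0871 and 0.422 in the 2 ileum samples kept. A list of 5 smooth muscle genes summed to 3.56 to 36.2 CPM in the duodenum and to 10.5 to 168 in the ileum, although the tissue is labelled whole thickness. A list of 5 genes of enteric neurons and glia summed to 2.76 to 9.80 CPM in the duodenum and to 3.20 to 26.5 in the ileum.

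Sulfite oxidase, the product of Suox, is a mitochondrial enzyme that carries a molybdenum cofactor and turns sulfite into sulfate, the last step in the oxidation of cysteine and methionine sulfur. Kcns3 encodes Kv9.3, a potassium channel subunit that is electrically silent alone and changes the currents of Kv2 channels when it assembles with them. Slc5a8 encodes SMCT1, a sodium-coupled carrier of lactate, pyruvate, nicotinate and short-chain fatty acids such as butyrate, known from the brush border of kidney tubules and of the distal bowel.

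The sequences just ahead of the start sites are shown because the 3 genes were picked for moving apart between regions. The reader can compare their base composition. They come from the RefSeq promoter table for GRCm38.p6, the patch release of the mm10 build, where all 3 symbols matched. Only bases outside annotated exons are printed, each 5′ to 3′ on the strand of the gene, with CG dinucleotides in capitals. The Suox stretch (chr10:128674074-128674168, minus strand) covers bases 250 to 156 ahead of the RefSeq start. The Kcns3 stretch (chr12:11150374-11150623, minus strand) lies ahead of one of 2 RefSeq starts. The Slc5a8 stretch (chr10:88885742-88885991, plus strand) ends at the base before the start.
Suox: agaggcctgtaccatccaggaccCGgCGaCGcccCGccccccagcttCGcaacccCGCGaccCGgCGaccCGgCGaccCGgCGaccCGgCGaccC
Kcns3: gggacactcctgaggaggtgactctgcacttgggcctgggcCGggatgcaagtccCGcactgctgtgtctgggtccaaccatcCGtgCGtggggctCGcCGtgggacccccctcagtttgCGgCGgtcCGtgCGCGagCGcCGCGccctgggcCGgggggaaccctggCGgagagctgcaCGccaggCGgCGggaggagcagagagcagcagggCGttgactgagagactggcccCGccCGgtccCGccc
Slc5a8: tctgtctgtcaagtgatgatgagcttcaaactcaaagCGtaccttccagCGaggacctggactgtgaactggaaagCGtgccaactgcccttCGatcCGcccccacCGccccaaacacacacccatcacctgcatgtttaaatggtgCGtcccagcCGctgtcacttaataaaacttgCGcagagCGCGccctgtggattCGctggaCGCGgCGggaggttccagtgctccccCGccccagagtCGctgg
The 95 Suox bases hold 15 CG dinucleotides, among them a tandem repeat with 4 copies of an 8-base unit. The whole 250-base window of Suox has 74.4% G or C, the Kcns3 window printed here 72.8% and the Slc5a8 window 58.8%, beside a median of 52.4% over 32851 windows. CG dinucleotides number 35, 23 and 17 in these windows, beside a median of 6. Letters of 4 factors known from intestinal epithelium were searched on both strands of the windows. AGATAA for GATA factors occurs in 9.99% of all windows, CNATAAA for CDX factors in 9.81%, AAAGTCC for HNF4 in 3.58% and GTTAAT for HNF1 in 6.43%. None of the 4, as spelled here, occurs in these windows of Suox, Kcns3 or Slc5a8, and variant spellings were not searched. The window of the other Kcns3 start, which partly overlaps exons and is not printed, has 47.2% G or C, 8 CG dinucleotides and 1 match to GTTAAT. In GENCODE release M21 the Suox gene spans chr10:128669894-128674073, Kcns3 chr12:11090202-11151056 and Slc5a8 chr10:88885992-88929515. Kcns3 encloses a processed pseudogene on the opposite strand, Gm48088, whose reads could not be separated from Kcns3 by strand from the sources used here.

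Suox was low in both regions until week 2 and was then high in the ileum alone. Over the 17 samples up to week 2 its level had a median of 3.70 CPM in the duodenum, from 1.89 to 5.71. In the 17 ileum samples of the same ages the median was 4.20 CPM, from 3.04 to 7.85. The early levels of both regions therefore lay within the same few CPM.

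At week 2 the duodenum samples had 4.50, 3.70 and 3.61 CPM of Suox and the ileum samples 4.70, 6.34 and 5.26. At week 3 the duodenum samples had 6.72, 7.04 and 8.04 CPM, and the ileum samples 113, 154 and 102. At week 4 the duodenum samples had 10.3, 13.1 and 11.1 CPM, and the ileum samples 45.6, 326 and 180. Every ileum sample of weeks 3 and 4 was above every duodenum sample of any age, and above every ileum sample up to week 2. The week 4 ileum samples span a wide range, the lowest of them below all 3 ileum samples of week 3.

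In the fit over all samples the ileum level of Suox was higher at week 3 than at week 2 by a log2 difference of 4.50 ± 0.39 (SE, n = 3 and 3), a 22.6-fold ratio. In the duodenum the same step was 0.89 ± 0.36 on the log2 scale, a 1.85-fold ratio. The ileal step exceeded the duodenal one by 3.61 ± 0.51. The log2 difference between ileum and duodenum was 0.47 ± 0.36 at week 2, 4.08 ± 0.38 at week 3 and 4.00 ± 0.38 at week 4. At day 6 it had the opposite sign, -0.58 ± 0.45, with both ileum samples below both duodenum samples. Suox ranges of the regions did not overlap at 6 of 8 ages, the exceptions being day 4 and day 8. Of all genes tested, 14.7% had ranges apart at 6 or more ages.

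Ordered by mean, Suox stood at 184 ± 140 CPM (SD, n = 3) in the week 4 ileum and 123 ± 27.0 in the week 3 ileum, and these 2 groups overlap. The week 4 duodenum followed at 11.5 CPM, apart from the groups on either side, and the week 3 duodenum at 7.27. From there down to the day 6 ileum at 3.47 CPM each group overlapped the next. The day 0 and day 2 duodenum, at 2.53 and 2.47 CPM, were lowest and overlapped each other. In bulk tissue such as this, fewer cells of a type and less RNA per cell cannot be told apart, for any of these genes.

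**Figure D1:**
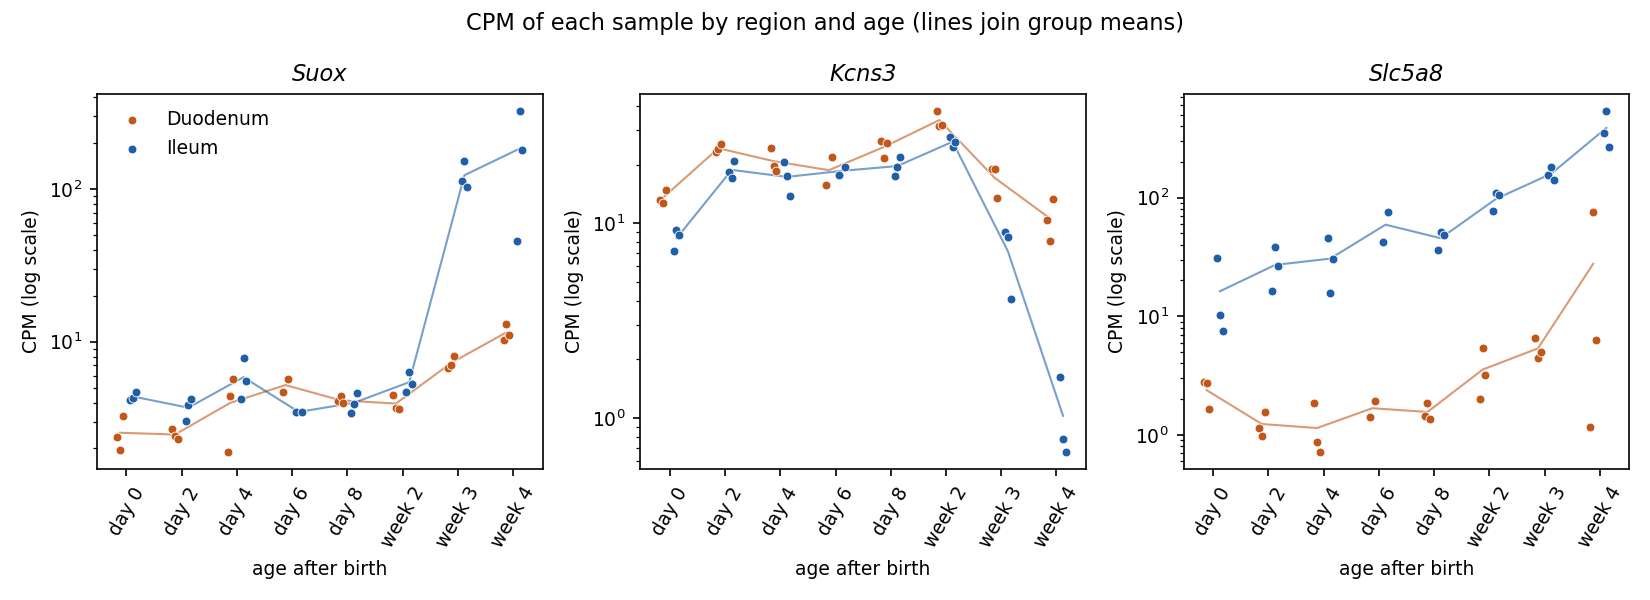
CPM of Suox, Kcns3 and Slc5a8 (log scale) in each of the 46 samples by age, duodenum in orange and ileum in blue, with lines through the group means. Suox separates from week 3, Kcns3 drops furthest in the ileum at week 4, and Slc5a8 is higher in the ileum at every age, with 1 week 4 duodenum sample at 75.4 CPM.

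Kcns3 had the higher mean in the duodenum at every age, was highest at week 2 in both regions, and was lower after that, most of all in the ileum. At day 0 the duodenum samples had 13.1, 12.7 and 14.9 CPM and the ileum samples 7.17, 9.19 and 8.72. By day 8 the duodenum samples had 26.4, 21.7 and 25.8 CPM and the ileum samples 17.5, 19.5 and 22.0. Both regions were thus higher at day 8 than at day 0 in every sample.

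The week 2 levels of Kcns3 were 37.9, 31.7 and 31.9 CPM in the duodenum and 27.7, 24.6 and 26.3 in the ileum. At week 3 they were 19.1, 18.9 and 13.4 CPM in the duodenum and 9.04, 8.45 and 4.10 in the ileum. At week 4 they were 10.4, 8.06 and 13.3 CPM in the duodenum and 1.63, 0.776 and 0.668 in the ileum. The 3 week 4 ileum samples were below all other samples of the series, while the week 4 duodenum overlapped the day 0 groups.

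The step from week 2 to week 3 was -0.98 ± 0.22 on the log2 scale in the duodenum and -1.86 ± 0.23 in the ileum, a difference between steps of -0.88 ± 0.31. Leaving out ileum week 3 sample 3, the lowest of its group, gave -0.60 for that difference. From week 3 to week 4 the log2 change of Kcns3 was -0.70 ± 0.22 in the duodenum and -2.84 ± 0.27 in the ileum, so the ileal level was lower in each of these steps. The regional difference, ileum minus duodenum, was -0.37 ± 0.21 at week 2, -1.25 ± 0.22 at week 3 and -3.39 ± 0.27 at week 4, when the duodenum mean was 10.3 times the ileum mean. The week 4 ileum levels of Kcns3 rest on 10 to 28 counts per sample, beside 290 to 399 in the week 4 duodenum. Kcns3 ranges overlapped between the regions at day 4, day 6 and day 8 and were apart at the other 5 ages, as 28% of all genes tested were at 5 or more ages.

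In the order of the means, the week 2 duodenum was highest at 33.8 CPM and did not overlap the week 2 ileum at 26.2. From there each group overlapped the next, down to the week 3 ileum at 7.19 CPM. The week 4 ileum, at 1.03 CPM, was apart from all of them.

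Slc5a8 was higher in the ileum than in the duodenum at every age, and its ileal level was highest at weeks 2 to 4. At day 0 the duodenum samples had 2.77, 2.73 and 1.64 CPM and the ileum samples 31.0, 10.2 and 7.48. At day 8 the duodenum samples had 1.45, 1.86 and 1.37 CPM and the ileum samples 35.8, 51.7 and 48.8. The lowest ileum sample at either age was above the highest duodenum sample.

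At week 2 the duodenum samples had 2.02, 5.44 and 3.20 CPM of Slc5a8 and the ileum samples 77.5, 110 and 104. At week 3 the duodenum samples had 6.56, 4.46 and 5.03 CPM and the ileum samples 156, 180 and 140. At week 4 the duodenum samples had 1.17, 75.4 and 6.26 CPM and the ileum samples 350, 541 and 269. Duodenum week 4 sample 2 stands far above every other duodenum sample, yet below every week 4 ileum sample. That sample had 0.278 CPM of Fabp6, within the range of the other duodenum samples of weeks 3 and 4.

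The regions did not overlap in Slc5a8 at any of the 8 ages, a pattern in one direction that 1.71% of all genes tested also showed. Averaged over ages, the log2 difference was 4.43 ± 0.31, and it was 4.81 without duodenum week 4 sample 2. By age the difference was lowest at day 0, 2.79 ± 0.78, and highest at day 6, 5.14 ± 1.04. The step from week 2 to week 3 was 0.61 ± 0.75 in the duodenum and 0.71 ± 0.69 in the ileum, a difference of 0.10 ± 1.02, whose sign turned to -0.32 without duodenum week 2 sample 2. At day 0 the log2 difference was 0.77 ± 0.38 for Suox and -0.70 ± 0.22 for Kcns3, both smaller in size than that of Slc5a8.

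In the order of means the week 4 ileum at 386 ± 139 CPM (SD, n = 3), the week 3 ileum at 159 and the week 2 ileum at 97.4 were each apart from the next. The earlier ileum groups overlapped their neighbours, from 59.1 CPM at day 6 to 16.2 at day 0. The week 4 duodenum, whose mean of 27.6 ± 41.5 rests on 1 sample, falls among them. The other duodenum groups lay from 5.35 down to 1.14 CPM, each overlapping the next.

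**Figure D2:**
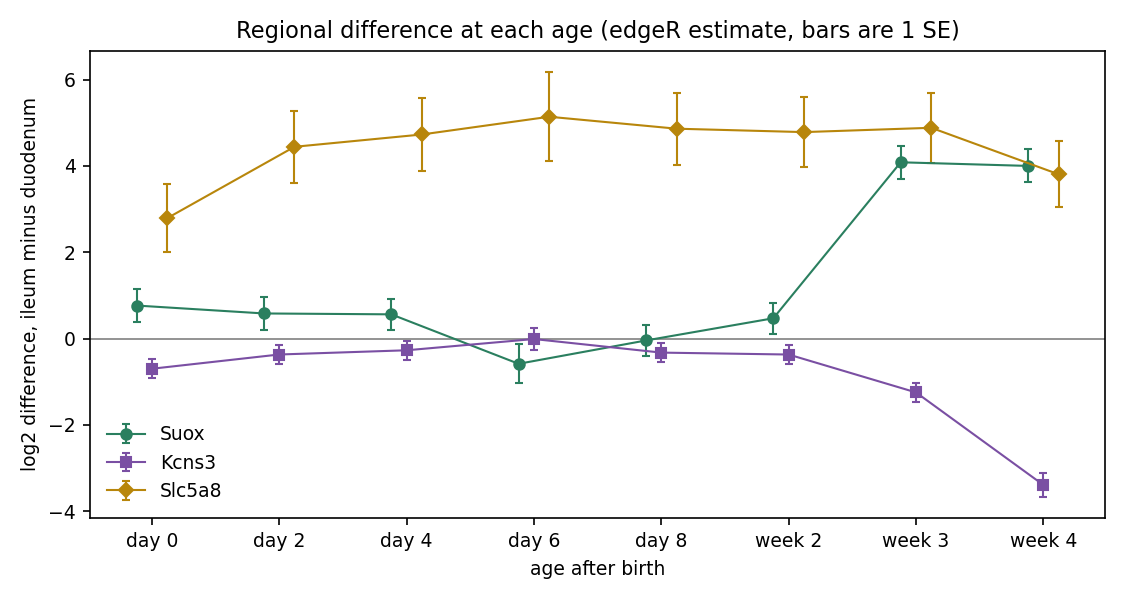
Log2 difference between ileum and duodenum at each age for Suox, Kcns3 and Slc5a8, as fitted by edgeR, with bars of 1 SE and 3 samples per region and age (2 at day 6). Slc5a8 lies above 2.7 throughout, Suox steps from 0.47 at week 2 to 4.08 at week 3, and Kcns3 moves down to -3.39 at week 4.

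Steps between ages, averaged over both regions, were compared with edgeR's quasi-likelihood test, with Benjamini-Hochberg adjustment over all 21986 genes. There were 9 such tests, 3 steps for each gene. The average over regions is another contrast than the regional difference, but it uses samples from which the genes were picked, so these p-values set a change against the spread between samples and are not independent evidence. From day 0 to day 8 Kcns3 rose by a log2 change of 1.05 ± 0.15 (adjusted p = 6.94e-07), a step in which 42.4% of all genes were called. Suox had a log2 change of 0.27 ± 0.26 (adjusted p = 0.434) and Slc5a8 one of 0.45 ± 0.54 (adjusted p = 0.538), neither past the threshold of 0.05. Kcns3 was the only one of the 3 to pass in this step.

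From day 8 to week 2 Kcns3 rose again, by 0.43 ± 0.15 on the log2 scale (adjusted p = 0.0359), where 21.2% of genes were called. That call was lost in 6 of 12 fits that each left out 1 sample, with adjusted p from 0.0348 to 0.0991 over the 12. Those 6 samples were duodenum day 8 sample 2, duodenum week 2 sample 1, ileum day 8 samples 1 and 2, and ileum week 2 samples 1 and 3. Slc5a8 had a log2 change of 1.14 ± 0.53 (adjusted p = 0.129), higher at week 2 in every sample of both regions, and it passed when only the compared groups were fitted (adjusted p = 0.000381). Suox had 0.18 ± 0.26 (adjusted p = 0.684).

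From week 3 to week 4 Kcns3 fell by 1.77 ± 0.17 on the log2 scale (adjusted p = 3.87e-10), in a step where 24.9% of genes were called. This average combines -2.84 in the ileum with -0.70 in the duodenum, and the same ileum samples make up the week 4 regional difference. Slc5a8 rose by a log2 change of 1.82 ± 0.51 (adjusted p = 0.00739), but without duodenum week 4 sample 2 the value was 0.35 ± 0.35 (adjusted p = 0.534). The 3 ileum samples of week 4 were nevertheless all above the 3 of week 3. Suox had a log2 change of 0.62 ± 0.24 and missed the threshold (adjusted p = 0.0572). Without ileum week 4 sample 1 the Suox value was 0.83 (adjusted p = 5.16e-04), and without ileum week 4 sample 2 it was 0.27 (adjusted p = 0.406).

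Ileum week 4 sample 1, the lowest of its group in Suox, also stands apart in other genes of the mature ileum. Fabp6 was 41.7 CPM there, beside 1256 and 1936 in the other 2 samples, and Slc10a2, the bile acid uptake carrier of the ileum, was 57.6 beside 644 and 282. Lct, the lactase gene, was 1549 CPM there beside 106 and 259. The week 4 duodenum samples had 1257, 3259 and 2568 CPM of Lct. The same sample had 350 CPM of Slc5a8, between the other 2, and 1.63 CPM of Kcns3, the highest of the 3. Whether region along the bowel, age or handling of that sample moved these genes together was not tested. At week 4 the 5 T cell genes summed to 40.1 to 79.3 CPM over both regions, and to at most 11.2 at earlier ages. The 5 genes of B and plasma cells summed to 48.1 to 192 CPM in the week 4 ileum and to 19.2 to 26.5 in the week 4 duodenum, and to at most 18.2 at earlier ages. The part of either list in the week 4 values was not tested.

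**Figure D3:**
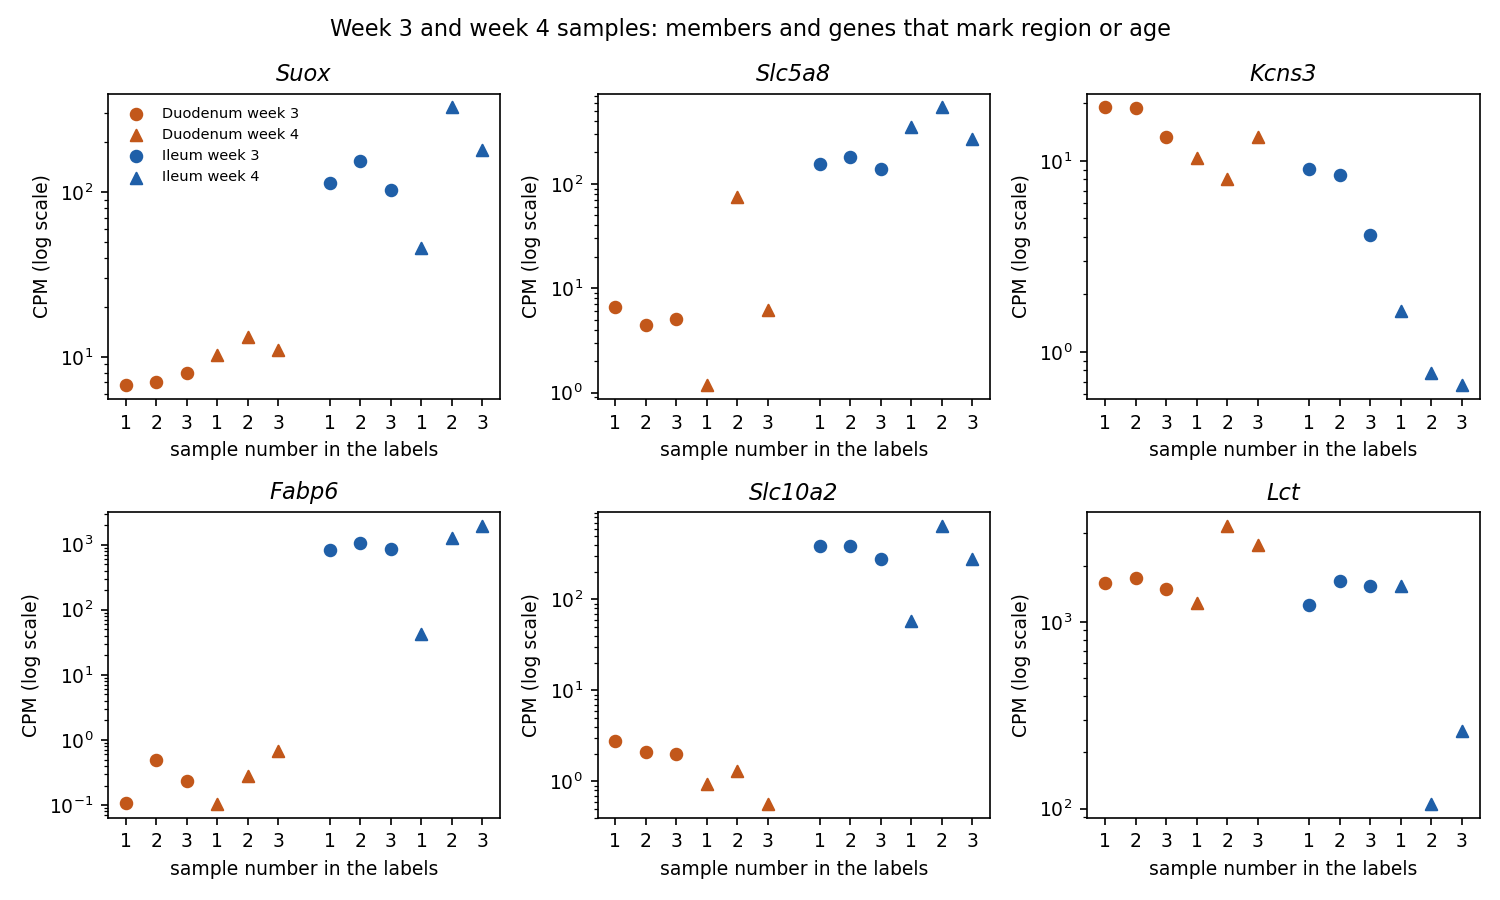
CPM (log scale) of the 3 genes and of Fabp6, Slc10a2 and Lct in each week 3 (circles) and week 4 (triangles) sample, numbered as in the labels. Ileum week 4 sample 1 is low in Suox, Fabp6 and Slc10a2 and high in Lct, and duodenum week 4 sample 2 is high in Slc5a8 at 75.4 CPM with Fabp6 at 0.278.

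Genes of sulfur amino acid breakdown and of the molybdenum cofactor, the surroundings of Suox, were mostly lower in the ileum. Of 23 listed genes 22 were tested, and averaged over ages 6 were called higher and 14 lower in the ileum, while over all genes 31.9% were called higher and 30.2% lower, 62.1% in all. The median log2 difference of the list was -0.38, beside 0.08 over all genes. Cdo1, the cysteine dioxygenase that starts the oxidation of cysteine, was lower in the ileum by a log2 difference of -1.39 ± 0.11, and Mtarc2, a molybdenum enzyme of mitochondria, by -1.11 ± 0.07. The anion carrier Slc26a1, which moves sulfate, was higher by 1.68 ± 0.12 and the molybdenum enzyme Aox1 by 1.35 ± 0.29. Each of these 4 passed the test, with adjusted p of at most 1.23e-04.

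At the weaning step 7 of the 22 sulfur genes rose and 0 fell in the duodenum, where 7.7% of all genes rose and 10.6% fell, 18.3% in all. In the ileum 7 rose and 4 fell, where 12.9% rose and 13.9% fell, 26.8% in all. The following genes were chosen after their values were seen. Slc13a1, the sodium-sulfate cotransporter, went from 2.88 ± 0.41 to 55.6 ± 16.8 CPM (SD, n = 3) in the duodenum, while the ileum went from 1.22 ± 0.26 to 110 ± 34.4 CPM. Got1, an aspartate aminotransferase that acts on the product of Cdo1, rose by a log2 change of 1.86 ± 0.19 in the duodenum and 1.91 ± 0.19 in the ileum. Cth, which makes cysteine from cystathionine, rose by 1.22 ± 0.22 and 2.15 ± 0.23. Adjusted p was at most 6.51e-05 for these 3 genes in both regions. For the difference between the steps of the regions, where 1.38% of all genes were called, 0 of the 22 genes passed with edgeR, 4 had an unadjusted p under 0.05, and DESeq2 called 2. Suox itself had a step that differed by 3.61 between regions, beside a median of -0.02 for the list.

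The Kv2 channel genes and their silent subunits, the partners and relatives of Kcns3, were mostly at low levels, and 7 of 12 listed were tested. Averaged over ages 3 were called higher in the ileum and 1 lower, beside 31.9% and 30.2% of all genes, with a list median of 0.28. Kcns3 itself was lower by -0.84 ± 0.08. Kcns2, another silent subunit, was higher in the ileum by 3.66 ± 0.29 (adjusted p = 2.21e-13). Kcnv2, also silent alone, was higher by 0.79 ± 0.26 (adjusted p = 0.00944), and Amigo1, a membrane protein that accompanies Kv2 channels, was lower by -0.49 ± 0.09. The smooth muscle and enteric neuron lists given above were also higher in the ileum, and their part in these differences was not tested.

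At the weaning step 1 of the 7 Kv2 list genes rose and 0 fell in the duodenum, where 7.7% of all genes rose and 10.6% fell. In the ileum 2 rose and 0 fell, where 12.9% and 13.9% did, so with 7 genes these counts do not set the list apart. The gene that rose in both was Kcnf1, a silent subunit chosen after its values were seen, which went from 0.219 ± 0.00862 to 1.48 ± 0.250 CPM in the ileum. Its duodenal rise was lost without duodenum week 2 sample 3 (adjusted p = 0.103). No gene of this list had a step that differed between regions in edgeR, with 0 of 7 at an unadjusted p under 0.05 and 0 by DESeq2.

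Other potassium channel genes of epithelia were divided between the regions. Of 11 tested, 4 were higher and 5 lower in the ileum, beside 31.9% and 30.2% of all genes, with a list median of 0.03. Kcnj16 and Kcnj15, inward rectifier subunits, were higher by 2.63 ± 0.18 and 1.37 ± 0.16, and the calcium-activated channel Kcnma1 by 1.20 ± 0.21. Kcnn4, a calcium-activated channel of secretory epithelium, was lower by -1.40 ± 0.14. At the weaning step 3 rose and 1 fell in the duodenum (7.7% and 10.6% of all genes), and 4 rose and 2 fell in the ileum (12.9% and 13.9%). The difference between the steps passed for 0 of 11 in edgeR, with 1 at an unadjusted p under 0.05, and for 0 in DESeq2.

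Genes for the transport, sensing and use of monocarboxylates, the substrates of SMCT1, included genes higher and genes lower in the ileum. Of 22 tested, 4 were higher and 10 lower, where 31.9% and 30.2% of all genes were, with a list median of -0.19. The 14 genes called are close to the share of 62.1% over all genes. Hcar1, the lactate receptor, was higher in the ileum by 2.01 ± 0.11 and Acss1, a mitochondrial acetyl-CoA synthetase, by 1.06 ± 0.07. Slc16a5, a member of the monocarboxylate transporter family, was lower by -1.34 ± 0.14 and the acyl-CoA synthetase Acsm3 by -0.96 ± 0.11. These 4 had adjusted p of at most 3.57e-09.

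At the weaning step 6 of the 22 rose and 2 fell in the duodenum, beside 7.7% and 10.6% of all genes, and 5 rose and 7 fell in the ileum, beside 12.9% and 13.9%. The other sodium-coupled monocarboxylate carrier, Slc5a12 (SMCT2, chosen after its values were seen), went from 1.18 ± 0.456 to 107 ± 0.661 CPM in the duodenum. In the ileum it went from 0.0972 ± 0.0120 CPM, which rests on 3 or 4 counts per sample, to 130 ± 7.22 (SD, n = 3). Slc5a8 over the same step was 1.52-fold higher in the duodenum and 1.63-fold higher in the ileum in the fit. Its 3 week 3 ileum samples were all above its 3 week 2 ileum samples, while its duodenum samples of the 2 ages overlapped. The Slc5a12 steps did not differ between regions past the threshold (log2 difference 3.82 ± 1.08, adjusted p = 0.0758).

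Among the monocarboxylate genes 2 had weaning steps that differed between the regions. Slc16a9, another transporter of this family, went from 0.168 ± 0.0757 to 3.52 ± 1.78 CPM in the duodenum. In the ileum it went from 0.484 ± 0.225 to 0.0777 ± 0.0583 CPM, the last resting on 1 to 3 counts per sample. Its steps differed by -7.04 ± 1.24 on the log2 scale (adjusted p = 0.00110), a value that depends on how such low counts are fitted. Slc16a5 went from 9.34 ± 1.14 to 76.6 ± 2.90 CPM in the duodenum. Ileum levels went from 2.64 ± 0.542 to 104 ± 11.9 CPM, and the steps differed by 2.25 ± 0.51 (adjusted p = 0.0137). This call was lost without the low-count filter (adjusted p = 0.0575), with all 48 samples (adjusted p = 0.113) and without ileum week 2 sample 3 (adjusted p = 0.0530). Like Suox, Slc16a5 thus had the larger step in the ileum.

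Of the other SLC5 family genes 9 of 11 were tested, and 5 were higher and 2 lower in the ileum, beside 31.9% and 30.2% of all genes, with a list median of 0.42. Slc5a7, the choline carrier of cholinergic neurons, was higher by 2.14 ± 0.47, at mean levels of at most 0.392 CPM in any group. The vitamin carrier Slc5a6 was higher by 0.78 ± 0.07 and the inositol carrier Slc5a3 lower by -0.72 ± 0.11. Slc5a5, the iodide carrier, was higher by 0.88 ± 0.34 (adjusted p = 0.0220), a call that was lost with a replicate block (adjusted p = 0.0723) and without ileum day 6 sample 1, ileum week 2 sample 2 or ileum week 3 sample 3 (adjusted p = 0.0527, 0.0566 and 0.0636). At the weaning step 5 rose and 0 fell in the duodenum, where 7.7% of all genes rose and 10.6% fell. In the ileum 4 rose and 0 fell, where 12.9% and 13.9% did. The largest of these rises were those of Slc5a4a and Slc5a4b, relatives of the glucose carriers chosen after their values were seen, by log2 changes of 6.76 ± 0.65 and 6.09 ± 0.51 in the duodenum and 7.57 ± 0.70 and 5.36 ± 0.48 in the ileum. The difference between the steps passed for 0 of 9 in edgeR, with 2 at an unadjusted p under 0.05, and for 0 in DESeq2.

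**Figure D4:**
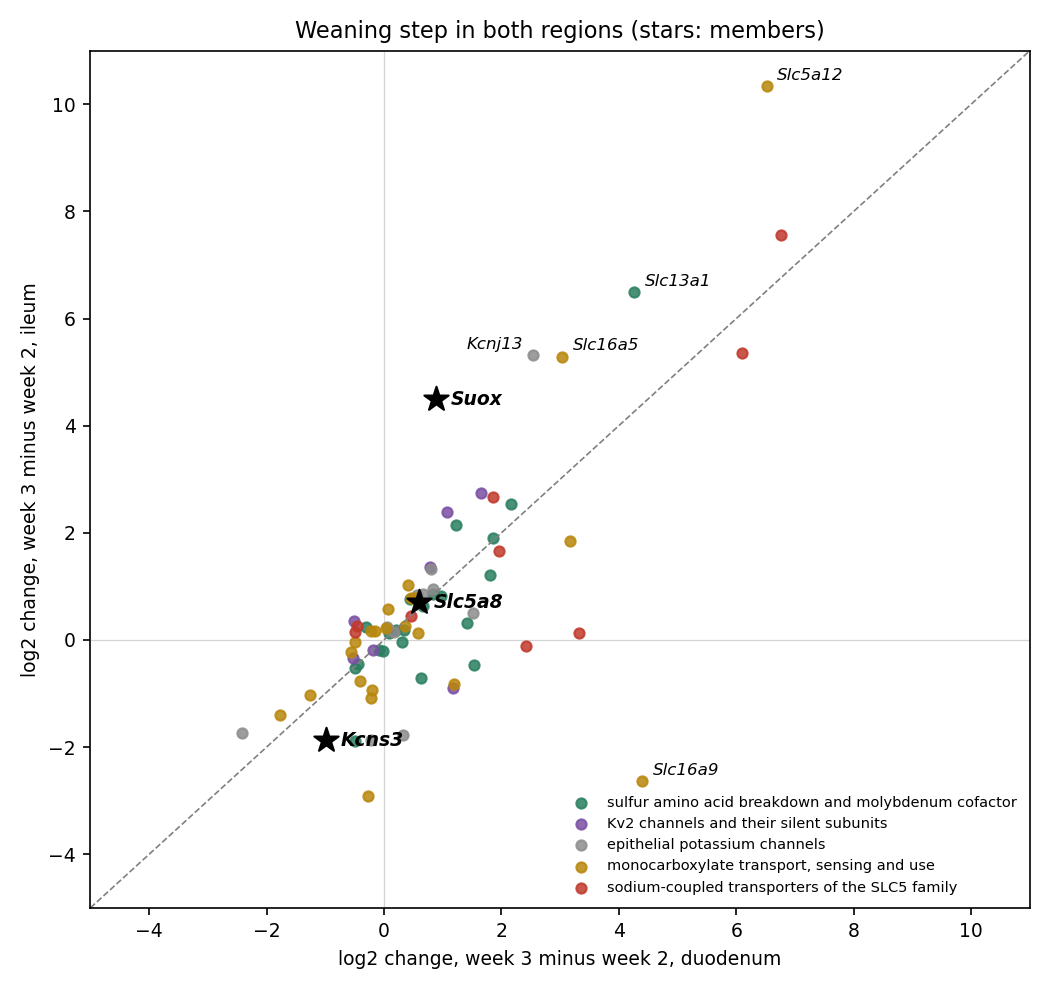
Log2 change from week 2 to week 3 in the duodenum (horizontal) and the ileum (vertical) for the tested genes of the 5 lists, coloured by list, and for Suox, Kcns3 and Slc5a8 as stars, with equal change on the dashed line. Suox lies above the line at 0.89 and 4.50, Kcns3 below it at -0.98 and -1.86, and Slc5a8 close to it at 0.61 and 0.71.

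The genes whose levels over the 16 groups were most like those of each of the 3 were found by Pearson's r of group means of log2 CPM, among 12355 genes with a symbol and a mean of at least 1. This r is a description across groups that share ages and regions, and it has no test. For Suox the 5 highest were Plcd1 (r = 0.94), Xpnpep2, Nos1ap, Tiam2 and Gm7694 (r = 0.93 each), and 20 genes had r over 0.9. Xpnpep2, a membrane-bound aminopeptidase, went from 25.5 ± 2.52 CPM in the week 2 ileum to 517 ± 121 at week 3, and from 20.1 ± 6.33 to 97.3 ± 8.86 in the duodenum (SD, n = 3). Its duodenal level thus moved further than that of Suox.

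For Kcns3 the most alike were Hsd17b13 (r = 0.96), Vwce (r = 0.94), Nr0b2, Nmnat3 (r = 0.93 each) and Xylb (r = 0.92), with 11 genes over 0.9. Hsd17b13, a lipid droplet enzyme, had 145 ± 13.4, 49.3 ± 6.45 and 5.94 ± 1.32 CPM in the ileum at weeks 2, 3 and 4. In the duodenum it had 186 ± 27.2, 85.6 ± 12.2 and 31.7 ± 8.19 CPM, so that, as with Kcns3, the ileum was the lower region at each of these ages.

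For Slc5a8 the genes most alike included Rnf152 and Gsdme (r = 0.96 each), Gm15965 (r = 0.95) and Tmigd1 (r = 0.93), with 15 genes over 0.9. Tmigd1, an epithelial adhesion protein, had 64.9 ± 10.9 CPM in the week 2 ileum and 475 ± 75.9 at week 3, beside 6.83 ± 0.445 and 21.2 ± 6.23 in the duodenum. Gsdme, a gasdermin, had 61.1 ± 7.36, 139 ± 26.9 and 97.4 ± 35.2 CPM in the ileum at weeks 2, 3 and 4, so its mean was not highest at week 4 as that of Slc5a8 was. Between the 3 genes themselves r was -0.82 for Suox with Kcns3, 0.66 for Suox with Slc5a8 and -0.58 for Kcns3 with Slc5a8.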

How the data were processed

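Per the labels, total RNA of 48 whole-thickness samples was sequenced on a NovaSeq machine. The authors deposited estimated counts per gene, already whole numbers, summarised with tximport per the file's name. STAR 2.6.1d, Salmon 0.14.2, DESeq2 1.30.1 and the mm10 build are named in the submitters' processing notes, without their roles. The authors also deposited normalized tables of a scaled signal for 40 samples, equal to the estimated count over 1 factor per column (largest relative deviation 4.4e-16). They served only for symbols, which 51106 of 54532 identifiers have.

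Counts were fitted with edgeR 4.0.16 in R 4.3.3. The filter was filterByExpr, which left 21986 genes, and the scaling was TMM. The quasi-likelihood fit was robust, with 1 mean for each of 16 groups over 46 samples. SE is the log2 change over the square root of F. Genes with an adjusted p under 0.05 are called. CPM uses the TMM-scaled library size, and log2 CPM a prior count of 2. Precision of low levels is limited by the totals per sample given above. In each list the 4 largest called differences, averaged over ages or between weaning steps, were to be named, and the 5 genes most like each member. Some genes that this rule names are not reported here. The genes and lists were chosen with earlier results of these data known. The day 6 samples numbered 3 were left out. The procedure was tested on simulated data. Alternatives were RLE factors, no filter, a mean count of at least 10, all 48 samples, 8 samples fewer, only the compared groups, a replicate block, DESeq2 1.42.0 and each sample left out in turn.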

Additional observations from a re-analysis of the deposited data

Results flagged for a closer look

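The difference between the weaning steps of ileum and duodenum passed the test of the difference itself for Slc16a9, at -7.04 on the log2 scale, and for Slc16a5, at 2.25, as given above. Both day 6 samples numbered 3, which entered no comparison, carried signal of all 3 genes. The library labelled duodenum had 33.9 CPM of Slc5a8, where the other day 6 duodenum samples had 1.41 and 1.95 and the ileum samples 42.4 and 76.0. The library labelled ileum had 1.15 CPM of Slc5a8, below both of those duodenum samples. Suox was 3.24 CPM in the library labelled duodenum and 3.73 in the library labelled ileum. Kcns3 was 20.7 CPM in the library labelled duodenum and 21.2 in the library labelled ileum, near the values of both regions at that age.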

How the results depend on the processing

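No alternative reversed a called value. The number of genes called for the difference between weaning steps, 303, moved most: it was 113 with all 48 samples, 672 without 8 samples missing from the normalized tables, 584 with only the compared groups, 577 with DESeq2, and 165 to 299 with single samples left out. The ileal change minus the duodenal one was positive for 54.8% of these calls, for 70.8% with all 48 samples and for 40.6% without the 8 samples. With only the compared groups 7539 genes were called from day 8 to week 2, and Slc5a8 at 1.13 passed there. From week 3 to week 4 Suox passed at 0.63 with a mean count of at least 10, at 0.61 without the 8 samples and at 0.63 with DESeq2, and Slc5a8 did not pass at 1.82 with all 48 samples (adjusted p = 0.0543) or at 1.81 with only the compared groups (adjusted p = 0.130). Leaving out single samples gave 0.27 to 0.83 for Suox and 0.35 to 2.09 for Slc5a8 in that step, and 0.39 to 0.48 for Kcns3 from day 8 to week 2. The cause of these shifts was not tested.

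Whether equal sample numbers mark a shared mouse is not known. Over 23 pairs with the same age and number the correlation of deviations from the group means averaged 0.08, from -0.15 to 0.45, and 9 were over 0.1. For different numbers the average was -0.04. Taking deviations from group means ties this average to that for equal numbers, so it is no separate baseline and cannot decide the question. The numbers were not used as pairs in the main fit. With the replicate block the regional differences averaged over ages were 1.19 for Suox, -0.84 for Kcns3 and 4.59 for Slc5a8, 341 genes were called for the difference between weaning steps, and no call of the 3 genes changed.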
